A study of Mus musculus with 4 samples.

Results

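The membrane-spanning 4A (Ms4a) genes encode small proteins that cross the cell membrane several times, and many of them sit beside receptors at the surface of blood cells. The family holds Ms4a1, which encodes the B-cell antigen CD20, and Ms4a2, which encodes the beta chain of the high-affinity IgE receptor of basophils and mast cells. Other members are known from myeloid precursors, T cells and macrophages.

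The 9 genes described here were chosen by symbol among the 19 Ms4a rows of each count matrix: Ms4a1, Ms4a2, Ms4a3, Ms4a4b, Ms4a4c, Ms4a6b, Ms4a6c, Ms4a6d and Ms4a7. They were read in bone marrow mononuclear cells of C57BL/6 mice, isolated on a Ficoll gradient and captured with a 10x kit that reads the 5′ end of transcripts, in 2 TLR9-/- libraries and 2 wildtype (WT) libraries. Per the methods of the study the mice came from 2 experiments with 1 mouse of each genotype in each, and the ages of these mice are not given in the sources used here. TLR9 is the endosomal receptor for unmethylated CpG DNA. A level is given in CPM, the unique molecular identifiers (UMIs) of a gene after a class of a library is scaled to 1000000 UMIs, and 4 values in a row are those of TLR9-/- 1, TLR9-/- 2, WT 1 and WT 2. Since reads came from 1 end of the transcript, CPM were not divided by gene length, and levels are compared between classes for 1 gene and not between genes.

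After filtering, 39167 cells were kept, with 50204578, 63958243, 31210188 and 41384657 UMIs in the 4 libraries and medians of 2545, 3618, 1759 and 2287 UMIs per cell. Tlr9 itself gave 41, 48, 120 and 97 UMIs, lower in both libraries labelled TLR9-/- but not at 0. Pairs of libraries shared between 118 and 203 cell barcodes. Clustering was done without the Ms4a rows and gave 42 clusters, of which 7, with 5.31% of cells, stayed unnamed because marked doublets or markers of 2 lineages led them, and the others were named from marker genes as 20 classes. One unnamed cluster held 178, 4, 129 and 4 cells, nearly all from the libraries numbered 1. Class names were built anew from markers and may differ from those of the study.

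All 9 genes lay in 391177 bases of chromosome 19 (GRCm38, chr19:11249675-11640851), where the GENCODE vM21 annotation places 14 protein-coding genes, 13 of them Ms4a genes. From the lower coordinate the order was Ms4a1, Ms4a7, Ms4a4c, Ms4a4b, Ms4a6c, Ms4a6b, Ms4a6d, Ms4a2 and Ms4a3, and Ms4a4c, Ms4a4b, Ms4a6c and Ms4a6b were on the plus strand. Longest transcripts of Ms4a6b and Ms4a6c matched at 86.1% of 1234 aligned bases and those of Ms4a4b and Ms4a4c at 82.8% of 1444. Ms4a6d matched Ms4a6b at 82.5% of 933 bases, and Ms4a2 matched Ms4a4b at 79.5% of 1298. How the counting treated reads that match both genes of a pair is not given in the sources used here, so counts of these members are uncertain to that degree. Ms4a1 and Ms4a6b also overlap annotated antisense genes, and the strand setting of the counting is not given in the sources used here.

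The stretches upstream of 5 members are shown because they set the most class-restricted gene beside the pairs of members most alike in transcript sequence. They are the 250 bases before the RefSeq start site on GRCm38.p6, written 5′ to 3′ on the strand of the gene. In Ms4a2 (chr19:11623720-11623969, minus strand) capitals mark the GATA motif AGATAA or its reverse complement TTATCT. In Ms4a4b (chr19:11443308-11443557, plus strand) and Ms4a4c (chr19:11407411-11407660, plus strand), and in Ms4a6b (chr19:11518309-11518558, plus strand) and Ms4a6c (chr19:11469118-11469367, plus strand), capitals mark the longest run of bases shared exactly by the pair.
Ms4a2: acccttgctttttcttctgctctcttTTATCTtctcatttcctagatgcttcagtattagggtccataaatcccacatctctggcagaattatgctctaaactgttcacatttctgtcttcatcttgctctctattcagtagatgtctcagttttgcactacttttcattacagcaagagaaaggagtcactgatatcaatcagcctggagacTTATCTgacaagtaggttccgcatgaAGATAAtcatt
Ms4a4b: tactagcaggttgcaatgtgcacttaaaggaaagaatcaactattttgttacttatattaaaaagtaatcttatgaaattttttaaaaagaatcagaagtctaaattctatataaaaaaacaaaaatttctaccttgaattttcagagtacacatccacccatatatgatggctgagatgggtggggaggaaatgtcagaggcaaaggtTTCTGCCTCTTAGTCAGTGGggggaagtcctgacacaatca
Ms4a4c: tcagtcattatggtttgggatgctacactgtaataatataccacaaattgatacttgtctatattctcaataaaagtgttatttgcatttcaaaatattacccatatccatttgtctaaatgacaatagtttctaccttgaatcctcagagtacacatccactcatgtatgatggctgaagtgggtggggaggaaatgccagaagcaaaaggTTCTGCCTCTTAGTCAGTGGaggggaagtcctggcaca
Ms4a6b: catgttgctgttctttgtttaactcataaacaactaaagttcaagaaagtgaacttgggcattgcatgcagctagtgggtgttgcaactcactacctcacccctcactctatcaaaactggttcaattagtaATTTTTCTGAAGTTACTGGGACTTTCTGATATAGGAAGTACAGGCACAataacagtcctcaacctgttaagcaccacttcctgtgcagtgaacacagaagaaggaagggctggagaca
Ms4a6c: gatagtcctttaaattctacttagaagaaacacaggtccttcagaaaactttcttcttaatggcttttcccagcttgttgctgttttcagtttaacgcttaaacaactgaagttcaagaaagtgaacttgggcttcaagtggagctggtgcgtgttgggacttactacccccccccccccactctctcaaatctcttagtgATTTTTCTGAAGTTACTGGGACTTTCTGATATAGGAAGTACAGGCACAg

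The Ms4a2 window held 3 GATA matches, starting 224, 37 and 11 bases before the start site, and 9.99% of 32851 promoter windows of this length held at least 1. Over the whole window Ms4a4b and Ms4a4c were identical at 70.3% of aligned columns, with a shared run of 20 bases. Ms4a6b and Ms4a6c shared a run of 48 bases, which started 118 bases before the start site of Ms4a6b and 49 before that of Ms4a6c, while their whole windows were identical at 51.1%. The other pairs with a window ranged from 43.8% to 51.5%. A match of letters is a description of the window and not of a bound site.

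The 9 genes gave 148088 UMIs in all, and their classes of highest level were 7 different ones. Ms4a3 gave 63511 UMIs and Ms4a6c 43706, while Ms4a7 gave 222. The 10 other Ms4a rows were led by Ms4a4a with 2247 UMIs and Ms4a8a with 1860, and the remaining 8 held between 0 and 21.

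**Figure D1:**
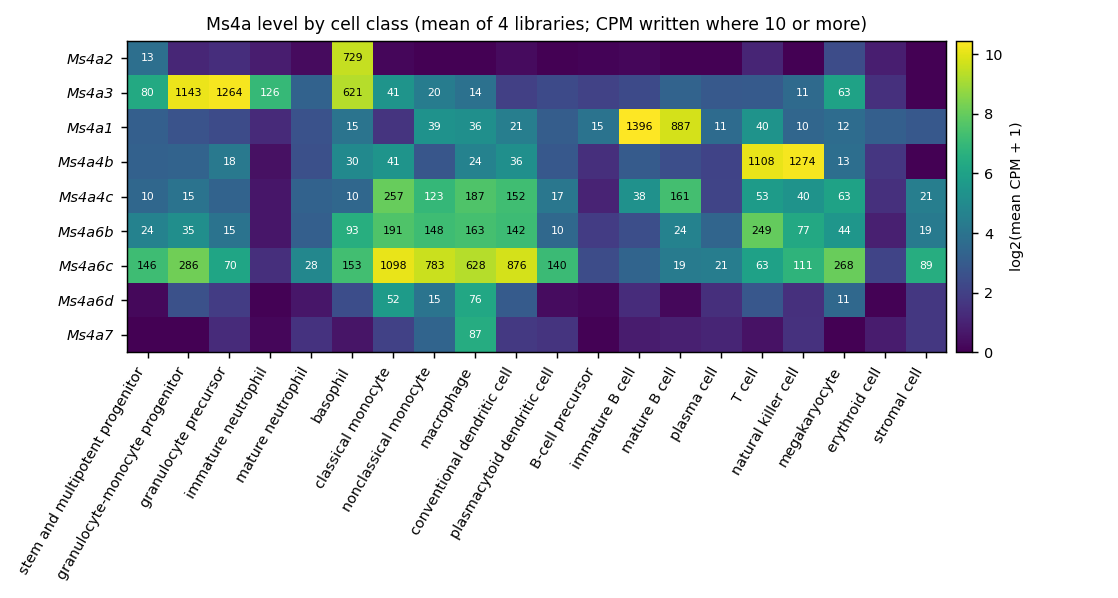
Mean level of each member (rows) in the 20 cell classes (columns) over the 4 libraries, coloured by log2(mean CPM + 1), with the CPM written where it was 10 or more. Ms4a2 stood out in basophils at 729 CPM, Ms4a7 in macrophages at 87.3 CPM, and Ms4a6c filled a block of monocytes, macrophages and dendritic cells.

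Ms4a2, the IgE receptor beta chain, was the member held most narrowly. In basophils its level was 714, 693, 784 and 724 CPM (mean 729 ± 39.3, SD, n = 4 libraries), and this class held 89.0% of its UMIs among named classes. The 4 libraries lay close together there. The next class was stem and multipotent progenitors, at 20.2, 17.3, 9.67 and 5.61 CPM, below every basophil library. With every cell thinned to 1000 UMIs and shallower cells left out (1897, 466, 2713 and 1156 cells), 54.3%, 51.7%, 50.4% and 59.8% of basophils held an Ms4a2 UMI, against 78.9% on average without thinning. Among thinned mature B cells 0 of 2533 held one, which allows a share of up to 0.118% by counting error alone.

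Ms4a3, a gene of myeloid precursors, was highest in granulocyte precursors at 1405, 1371, 1304 and 975 CPM and in granulocyte-monocyte progenitors (GMPs) at 997, 1240, 1073 and 1264 CPM. These top 2 classes overlapped between libraries and their order cannot be told. Basophils followed at 626, 783, 632 and 443 CPM, below both without overlap, and immature neutrophils at 154, 113, 122 and 116 CPM. GMPs alone held 62.6% of its UMIs among named classes. In thinned cells 54.5% of GMPs held an Ms4a3 UMI (92.1% unthinned), against 0.271% of erythroid cells, whose median depth before thinning was 2650, 9134, 2118 and 7358 UMIs where GMPs had 14305, 22436, 11526 and 15707.

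Ms4a1, which encodes CD20, was high in the later B lineage. It was at 1438, 1591, 1206 and 1349 CPM in immature B cells and at 1004, 842, 862 and 839 CPM in mature B cells, with no overlap between the 2 classes. These classes held 55.6% and 34.9% of its UMIs among named classes. In thinned cells 67.2% of immature and 55.5% of mature B cells held an Ms4a1 UMI (71.9% and 63.6% unthinned), against 1.28% of B-cell precursors and 1.29% of erythroid cells. In CPM the precursors were at 12.9, 11.99, 16.7 and 17.9 and erythroid cells at 1.53, 2.64, 18.3 and 9.55, so precursors were above erythroid cells in both TLR9-/- libraries and overlapped with them in WT.

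Ms4a4b, known from T cells, was at 1296, 1086, 1681 and 1032 CPM in natural killer (NK) cells and at 1302, 1129, 1196 and 803 CPM in T cells. The 2 classes overlapped, and the next class, classical monocytes, was at 43.1, 39.7, 48.7 and 33.9 CPM. In thinned cells 68.1% of NK cells and 61.6% of T cells held an Ms4a4b UMI (86.4% and 74.9% unthinned), against 0.214% of erythroid cells. Among T cells the level was 1320, 1314, 1422 and 781 CPM in cells with a Cd8a or Cd8b1 UMI and no Cd4 UMI, and 818, 1089, 721 and 1137 CPM in cells with a Cd4 UMI and no Cd8 UMI. The Cd4 group held 24, 37, 15 and 7 cells, and the groups overlapped.

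Ms4a6b had 2 homes. It was at 305, 330, 205 and 159 CPM in T cells and at 182, 186, 268 and 127 CPM in classical monocytes, with macrophages, nonclassical monocytes and conventional dendritic cells overlapping below them. Conventional dendritic cells, at 157, 160, 149 and 103 CPM, lay above the next class, basophils, without overlap. In NK cells, where the level of Ms4a4b overlapped with that in T cells, Ms4a6b was at 83.8, 53.4, 138 and 33.6 CPM. In the T-cell cluster, thinned cells with an Ms4a4b UMI also held an Ms4a6b UMI in 28.6% of 699 cells, and those without in 16.9% of 402. The first share was the higher in all 4 libraries.

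Ms4a6c was high in several myeloid classes. Classical monocytes were at 1072, 1138, 1176 and 1004 CPM, above every other class. Conventional dendritic cells followed at 816, 975, 938 and 773 CPM, then nonclassical monocytes at 844, 754, 833 and 703 and macrophages at 708, 802, 546 and 456, each overlapping its neighbour. GMPs were lower at 317, 281, 351 and 196 CPM. In thinned cells 66.7% of classical monocytes and 59.3% of conventional dendritic cells held an Ms4a6c UMI (94.7% and 83.2% unthinned), against 0.216% of erythroid cells. Within the class named plasmacytoid dendritic cells, cluster 0 was at 348, 283, 346 and 343 CPM and cluster 31 at 54.4, 85.5, 94.4 and 86.5 CPM. The name of cluster 0 is less certain. Irf8, Runx2, Bex6 and Flt3 were among its leading genes. At Leiden resolution 1 they were among those of a cluster named conventional dendritic cell.

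Ms4a4c was at 238, 244, 357 and 188 CPM in classical monocytes. Macrophages, mature B cells and conventional dendritic cells overlapped with them, at means of 187 ± 46.9, 161 ± 37.6 and 152 ± 33.6 CPM (SD, n = 4). The presence of mature B cells among its leading classes set it apart from Ms4a6c, which was at 26.1, 15.3, 18.7 and 16.2 CPM there. In thinned mature B cells 16.5%, 18.2%, 15.1% and 11.6% held an Ms4a4c UMI, against 0.267% of erythroid cells on average.

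Ms4a6d and Ms4a7 were low and led by macrophages, a class of 31, 55, 56 and 36 cells. Ms4a6d was at 160, 68.4, 59.0 and 15.2 CPM there, from 32 UMIs in all, and at 56.1, 52.7, 63.0 and 37.3 CPM in classical monocytes, from 1091 UMIs. The 2 classes overlapped, so the higher mean in macrophages rests on TLR9-/- 1. Ms4a7, a marker of tissue macrophages, was at 66.8, 43.5, 148 and 91.2 CPM in macrophages, from 38 UMIs, and above every library of the next class. In classical monocytes it was at 2.71, 4.04, 4.39 and 1.03 CPM, and the 66 UMIs of this large class were 36.1% of its UMIs among named classes.

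**Figure D2:**
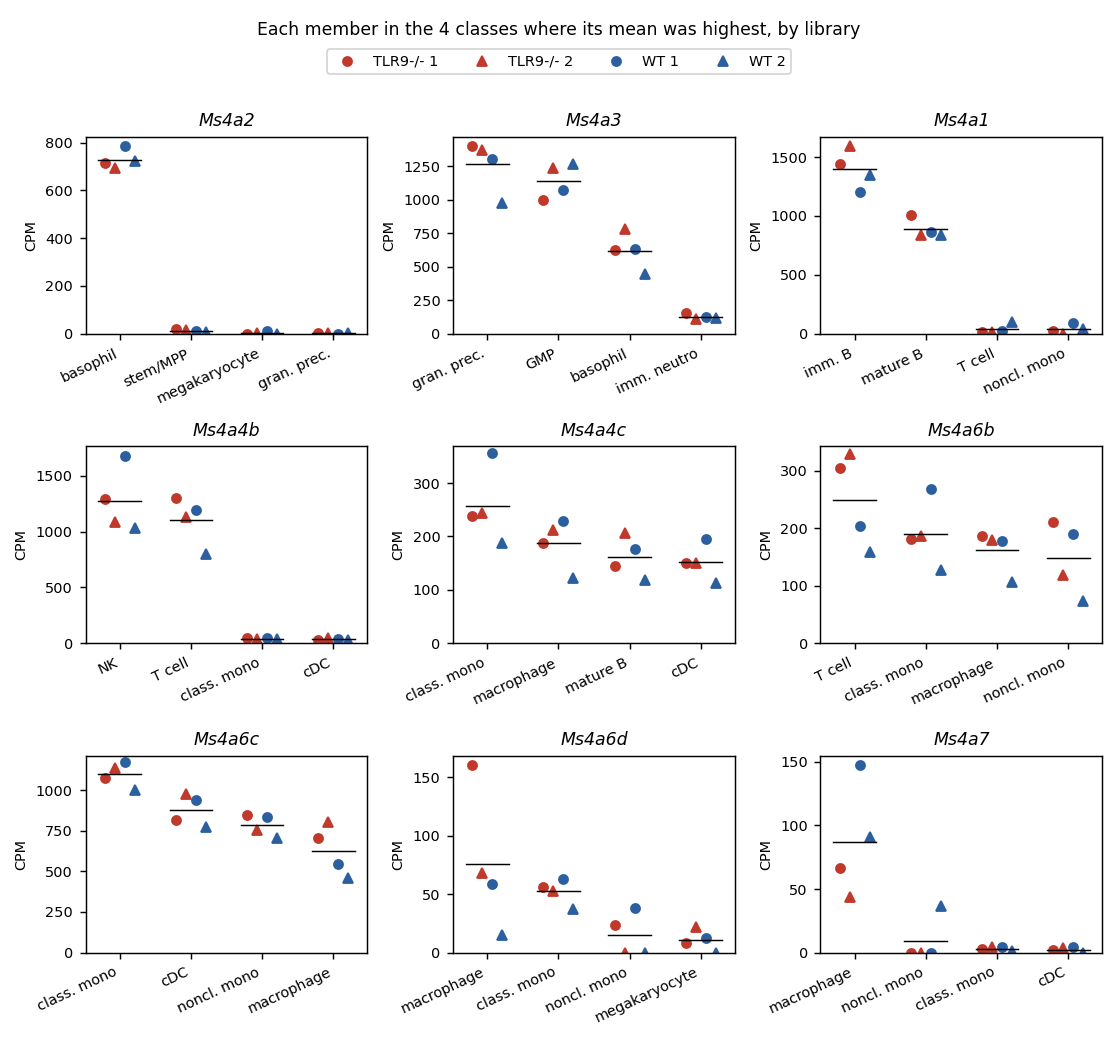
Level of each member in CPM (vertical axis from 0) in the 4 classes where its mean was highest, with a point for each library (red TLR9-/-, blue WT; circle library 1, triangle library 2) and a line at the mean of 4. The top classes of Ms4a1, Ms4a2, Ms4a6c and Ms4a7 stood above the next without overlap, and those of the other 5 members overlapped with their neighbour.

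Megakaryocytes held 58, 40, 22 and 17 cells, and 1 library stood apart in them. Ms4a6c was at 182, 193, 545 and 151 CPM there and Ms4a3 at 39.9, 14.3, 160 and 37.7 CPM, high in WT 1 for both. The summed CPM of 4 monocyte genes (Lyz2, Ly6c2, F13a1 and Ccr2) in this class was also highest in WT 1, at 10504 against 3840, 5266 and 3612, and its part in these levels was not tested.

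Levels of members also differed between clusters within the classes. In the list of clusters that follows, the order was assumed from class names and leading genes and was not computed. Clusters 29 and 28 are both GMP clusters, and the place of cluster 29 before cluster 28 was not tested. Ms4a3 was at 102.5, 113, 61.3 and 41.7 CPM in stem and multipotent progenitors (cluster 1) and at 1700, 1804, 1638 and 1661 CPM in cluster 29, the GMP cluster led by Mpo, Elane, Ctsg and Prtn3. It was at 488, 542, 585 and 495 CPM in cluster 28, the GMP cluster whose leading genes also held Ly6c2, at 55.8, 73.8, 69.4 and 55.9 CPM in monocyte cluster 25, and at 5.48, 6.12, 2.69 and 7.31 CPM in monocyte cluster 23. Among clusters 29, 28, 25 and 23, no library of a cluster overlapped with those of the next in this order.

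In the assumed order Ms4a6c ran the other way from cluster 29 onward, and cluster 29 lay below cluster 1. It was at 169, 164, 143 and 108 CPM in cluster 1, at 47.8, 62.0, 70.9 and 40.7 CPM in cluster 29, at 512, 551, 593 and 495 CPM in cluster 28, at 1013, 1095, 1049 and 976 CPM in cluster 25 and at 1187, 1204, 1360 and 1050 CPM in cluster 23. Ms4a4c was at 27.1 CPM on average in cluster 28, 184 in cluster 25 and 374 in cluster 23, and Ms4a6b at 56.6, 125 and 296 CPM in the same clusters. Ms4a6d followed at 9.37, 36.4 and 78.3 CPM.

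Toward neutrophils Ms4a3 was at 1264 CPM on average in granulocyte precursors (cluster 18), 198 in immature neutrophil cluster 5, 17.7 in immature neutrophil cluster 12 and 6.55 in mature neutrophil cluster 13. Ms4a6c was at 69.9 CPM in cluster 18 and at 5.87 CPM in cluster 13, and again higher in mature neutrophil cluster 11, at 55.1, 78.1, 107 and 19.5 CPM. In the B lineage Ms4a1 was between 5.63 and 15.9 CPM on average in clusters 21, 20, 3 and 4, at 66.6, 49.6, 32.7 and 65.4 CPM in cluster 19, the precursor cluster led by Dnajc7, Rag1 and Arl5c, and at 965, 1173, 888 and 1060 CPM in immature B-cell cluster 8. Cluster 7, led by Fcmr and Tnfrsf13c, was at 1856, 1987, 1521 and 1636 CPM, above the mature cluster 6 at 1004, 842, 862 and 839. Ms4a4c was at 5.04 CPM on average in cluster 8, 56.0 in cluster 7 and 161 in cluster 6.

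**Figure D3:**
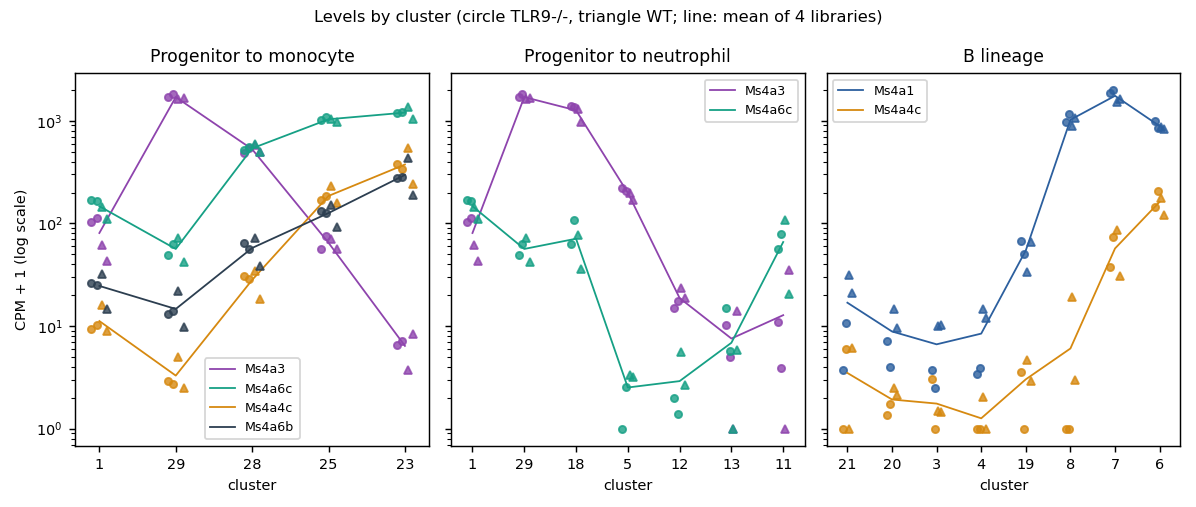
Level (CPM + 1, log axis) of the named members in clusters placed in an assumed order of maturation, for each library (circle TLR9-/-, triangle WT), with a line through the means of 4. Ms4a3 peaked at 1701 CPM in cluster 29 while Ms4a6c reached 1200 CPM in cluster 23. Levels are not compared between genes, so the place where the lines cross is not a result.

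In cluster 28, where each of Ms4a3 and Ms4a6c lay between its levels in clusters 29 and 25, the 2 members were also read in single cells. Of its 1004 thinned cells, 206 held a UMI of Ms4a3 and none of Ms4a6c, 295 the reverse, 135 held both and 368 neither. Ms4a6c was found in 39.6% of cells with an Ms4a3 UMI and in 44.5% of those without. TLR9-/- 2 (46.0% and 44.6%) and WT 2 (50% and 42.3%) went the other way. These counts show no exclusion of one member by the other within the cells of cluster 28. In cluster 29, 645 of 873 thinned cells held Ms4a3 without Ms4a6c, 27 held both and 26 held Ms4a6c alone. Ms4a6c was found there in 4.02% of cells with an Ms4a3 UMI and in 12.9% of those without, lower in all 4 libraries. In cluster 25, 915 of 1491 held Ms4a6c without Ms4a3 and 40 held both, and in cluster 23 these counts were 1435 and 9 of 2093. In cluster 25 Ms4a6c was found in 58.0% of cells with an Ms4a3 UMI and in 64.3% of those without. In cluster 23 the shares were 69.2% and 69.0%. Libraries went both ways in each of these clusters. At 1000 UMIs a cell without a UMI of a gene is not shown to lack it.

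**Figure D4:**
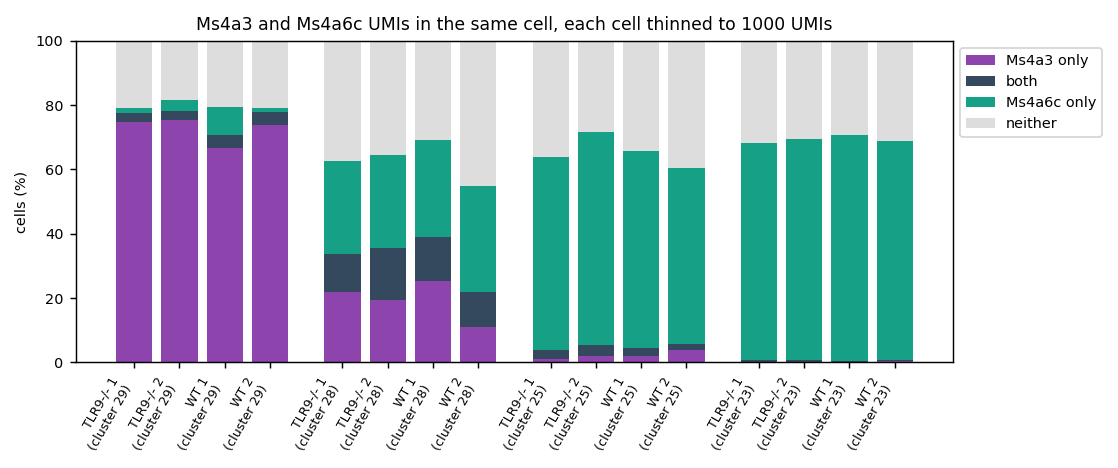
Share of cells (%) with UMIs of Ms4a3 alone, both, Ms4a6c alone or neither in each library of clusters 29, 28, 25 and 23, each cell thinned to 1000 UMIs. Cells with both were most frequent in cluster 28 (135 of 1004 over the 4 libraries).

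In basophils 111 of 670 thinned cells held both Ms4a2 and Ms4a3, 248 Ms4a2 alone and 72 Ms4a3 alone. Ms4a3 was found in 30.9% of cells with an Ms4a2 UMI and in 23.2% of those without, and WT 2 went the other way at 12.1% and 28.2%. In cluster 23 Ms4a6c was found in 73.9% of thinned cells with an Ms4a4c UMI and 67.0% of those without, and in 75.3% with an Ms4a6b UMI and 66.8% without, in the same direction in all 4 libraries.

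The genes whose class pattern was most like each member were taken over the 20 classes by Pearson's r of log2(CPM + 10), as a description in which all points share the same libraries. For Ms4a1 the most alike were Fcmr, the IgM Fc receptor (r = 0.977), and 2 immunoglobulin kappa segments. For Ms4a2 they were Csrp3 (0.997), Gm11697 (0.992) and the cytokine gene Il6 (0.990), and for Ms4a3 Mfsd13a (0.942), Ap3s1 (0.890) and 1700020L24Rik (0.890). Ms4a4b was most like Trbc1, a T-cell receptor beta constant gene (0.947), Ccl5 (0.944) and Txk (0.939). Among the genes most like Ms4a6c were Ccr2, the receptor by which monocytes leave the marrow (0.910), and Tifab (0.900). For Ms4a4c the first was Ctsc (0.879) and for Ms4a6b Fam105a (0.911). Ms4a7 was most like Clec4n (0.979) and the complement genes C1qb (0.968) and C1qc (0.963). For Ms4a6d the first was Ms4a8a (0.947), another row of the family, followed by the IgG receptor gene Fcgr1 (0.920). Among the members themselves the most alike pair was Ms4a6b and Ms4a6c (0.813).

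Next, the genotypes were compared within classes, to ask whether loss of TLR9 went with another level of a member in the cells that use it. UMIs were summed per library and class and tested with edgeR's quasi-likelihood test over all genes of the class, with Benjamini-Hochberg adjustment. The fit had no term for the experiment, since the labels do not say which libraries share one. Of 180 pairs of member and class, 85 passed the filter on low counts in the 20 classes, and 0 were called at an adjusted p under 0.05. By edgeR 17 of these 85 pairs had an unadjusted p under 0.05, and 8 of the 17 were Ms4a1. These are 20% of the pairs, where 6.58% of all gene and class pairs had such a p. The classes of 1 gene are not independent, and some Ms4a1 pairs passed the filter through the WT libraries, as given below. The 20% is therefore not a result about the family. Groups did not overlap in 25 of the 85 pairs, or 29.4%, against 36.3% of all gene and class pairs. Over all genes tested the share called in a class ran from 0% to 0.675%, with 0.59% in B-cell precursors, 0.598% in immature neutrophils, 0.243% in conventional dendritic cells, 0.162% in mature neutrophils, 0.238% in stromal cells and 0.0257% in megakaryocytes. DESeq2 called 1 of the pairs, Ms4a1 in erythroid cells, where it called 0.416% of genes. With the library number as a block, edgeR called 8 of the 85 pairs. For Ms4a1 they were classical monocytes, erythroid cells, plasmacytoid dendritic cells and T cells. The others were Ms4a2 and Ms4a3 in stem and multipotent progenitors, Ms4a4b in granulocyte precursors and Ms4a6b in T cells. In the classes of these pairs 1.08% to 2.51% of genes were called with the block. For a single gene, exact permutation of 4 libraries gives no p below 0.33, so the p-values rest on the spread pooled over genes.

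In the class or classes of highest level no member was called without the block, and with it Ms4a6b was called in T cells. Ms4a1 differed by 0.21 on the log2 scale (SE 0.19, TLR9-/- minus WT) in immature B cells, where 0.171% of genes were called, and by 0.08 (SE 0.22) in mature B cells, where 0.21% were. Both TLR9-/- libraries lay above both WT libraries in immature B cells, and the groups overlapped in mature B cells. Ms4a2 differed by -0.14 (SE 0.22) in basophils (0.167% of genes called), Ms4a4b by 0.25 (SE 0.24) in T cells (0.215% called) and by -0.21 (SE 0.27) in NK cells (0.0843% called). In classical monocytes (0.675% called) Ms4a6c differed by 0.01 (SE 0.17) and Ms4a4c by -0.19 (SE 0.25). Ms4a6b in T cells is given further on, and Ms4a6d and Ms4a7 did not pass the filter in macrophages, where their levels above have no test. Ms4a3 differed by 0.21 (SE 0.20) in granulocyte precursors (0.327% called) and by -0.10 (SE 0.18) in GMPs (0.501% called). Within the GMP clusters it differed by 0.07 (SE 0.16) in cluster 29 and by -0.13 (SE 0.17) in cluster 28. In these clusters 0.523% and 0.433% of genes were called. A missed threshold does not show that the levels were alike.

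Ms4a3 came nearest to the threshold in stem and multipotent progenitors. It was at 102.5 and 113 CPM in the first genotype and at 61.3 and 41.7 CPM in WT, so the groups did not overlap, and the difference was 1.08 (SE 0.22, adjusted p = 0.0581 by edgeR's quasi-likelihood test, where 0.396% of genes were called). In the same cells Ms4a2 was at 20.2 and 17.3 against 9.67 and 5.61 CPM, with a difference of 1.33 (SE 0.38, edgeR adjusted p = 0.235) from 65, 56, 9 and 7 UMIs. A list drawn up for the primary granule stored by neutrophil precursors was read in the same class, a choice made after the values were seen. It held Mpo, Elane, Prtn3, Ctsg, Azu1, Cst7 and Nkg7, of which Azu1 was not tested. Nkg7 was also among the markers used to name GMPs and NK cells, so the list is not of granule genes alone. All 6 tested of 7 listed were above 0, with a median of 0.53 against -0.02 over all genes tested, and edgeR called none, with 3 at an unadjusted p under 0.05, as had 9.62% of all genes there. Mpo, which encodes myeloperoxidase, was at 1186, 1853, 880 and 703 CPM with a difference of 0.93 (SE 0.22), and Ctsg, which encodes cathepsin G, at 668, 1120, 508 and 481 CPM with a difference of 0.85 (SE 0.23). In the same cells the summed CPM of the 4 monocyte genes was 475, 427, 393 and 320, that of 5 neutrophil genes (S100a8, S100a9, Camp, Ngp and Ltf) 370, 751, 72.0 and 526, and that of the 4 B-cell genes 307, 367, 447 and 445. Monocyte genes were higher and B-cell genes lower in both TLR9-/- libraries, and neutrophil genes overlapped. The part of these genes in the difference of Ms4a3 was not tested.

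In T cells Ms4a6b was at 305 and 330 CPM without TLR9 and at 205 and 159 CPM in WT. The groups did not overlap, and the difference was 0.76 (SE 0.22, edgeR adjusted p = 0.601). With the library number as a block it was also 0.76 (edgeR adjusted p = 0.0156, where 1.49% of genes were called). In the T cells with a Cd8 UMI and no Cd4 UMI, Ms4a6b was at 364 and 285 against 201 and 220 CPM. In those with neither it was at 275 and 330 against 207 and 126 CPM. In those with a Cd4 UMI and no Cd8 UMI it was at 336 and 421 against 185 and 284 CPM, from 23, 58, 9 and 4 UMIs. The groups overlapped in none of these subsets, which are parts of the same T cells of the same libraries. The share of all genes without overlap was not computed in the subsets. Over the 20 classes it was 36.3% of gene and class pairs. The lack of overlap is therefore not a result about Ms4a6b. Ms4a6c in T cells was at 71.6, 93.2, 35.2 and 51.7 CPM, and the summed CPM of the 4 monocyte genes there was 2389, 2445, 2025 and 1279, also higher in both TLR9-/- libraries. Its part was not tested.

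The fitted difference of Ms4a1 was below 0 in each of the 9 classes outside the B lineage where it was tested. The filter on low counts can be passed through 1 genotype alone. A class with counts mainly in WT then enters only with a difference below 0. In classical monocytes, plasmacytoid dendritic cells and basophils Ms4a1 passed it through the WT libraries. Classes without a test went both ways. Macrophages were at 26.7, 80.8, 22.1 and 15.2 CPM, and nonclassical monocytes at 23.4, 0, 94.6 and 37.0 CPM. In classical monocytes Ms4a1 gave 4, 4, 7 and 12 UMIs (0.571, 0.505, 2.56 and 4.11 CPM), with a difference of -2.60 (SE 0.55, edgeR adjusted p = 0.0902). In plasmacytoid dendritic cells it gave 1, 5, 29 and 10 UMIs and differed by -3.22 (SE 0.65, edgeR adjusted p = 0.139, 0.227% of genes called), and in erythroid cells 7, 22, 104 and 73 UMIs and -2.81 (SE 0.49, edgeR adjusted p = 0.289, 0.0608% of genes called). In CPM the erythroid level was 1.53, 2.64, 18.3 and 9.55, where immature B cells averaged 1396. The summed CPM of 4 B-cell genes (Cd79a, Cd79b, Ighm and Igkc) was 133, 132, 479 and 222 in erythroid cells, lower in both TLR9-/- libraries. It was 174, 201, 179 and 188 in classical monocytes and 1130, 1335, 1278 and 1297 in plasmacytoid dendritic cells, where the groups overlapped. The part of B-cell RNA in these counts was not tested. With clusters taken as units, which was added after seeing the data, 3 of 93 tested pairs were called by edgeR: Ms4a1 in erythroid cluster 15 (-3.90, SE 0.78, adjusted p = 0.0372) and monocyte cluster 23 (-4.33, SE 0.86, adjusted p = 0.0259), and Ms4a6c in B-cell precursor cluster 20 (3.11, SE 0.53, adjusted p = 0.0147), from 25, 15, 2 and 3 UMIs. In these clusters 0.522%, 0.566% and 0.484% of genes were called. Ms4a1 in cluster 23 passed the filter through the WT libraries, and Ms4a6c in cluster 20 through the TLR9-/- libraries. The direction of these differences was thus fixed by the filter.

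Lists of partner genes gave no call by edgeR, where all genes tested had medians between -0.02 and 0.01. In basophils 6 of 6 IgE receptor genes (Fcer1a, Fcer1g, Lyn, Syk, Lat and Fyn) were tested and none was called or had an unadjusted p under 0.05, with a median of 0.03. Of the 10 B-cell receptor and coreceptor genes, all were tested and none was called, with a median of 0.23 in immature B cells, where 1 had an unadjusted p under 0.05, and 0.09 in mature B cells, where 0 had. In classical monocytes none of 10 monocyte and macrophage surface genes was called (2 at an unadjusted p under 0.05, median -0.05). In macrophages 6 of the 10 were tested and none was called (1 at an unadjusted p under 0.05, median 0.64, 0.0648% of genes called), beside summed monocyte genes at 18445, 15348, 8897 and 9047 CPM. In classical monocytes none of 10 interferon-stimulated genes was called, with all 10 below 0, 3 at an unadjusted p under 0.05 and a median of -0.63. WT 1 was the highest library for all 10. WT 2 lay below both TLR9-/- libraries for some, as for Ifit1 at 3.57, 3.54, 9.16 and 2.40 CPM. It lay above both for others, as for Ifit2 at 5.56, 6.32, 11.4 and 7.19 CPM. Oasl2, at 4.99, 9.86, 50.5 and 18.5 CPM, came nearest with a difference of -2.20 (SE 0.43, edgeR adjusted p = 0.0558). None of the 6 tested genes of the primary granule list was called in GMPs or in granulocyte precursors, with medians of -0.08 and 0.23 and 0 at an unadjusted p under 0.05.

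Over all cells of a library, before any split by class, 3 members had an unadjusted p under 0.05. Ms4a1 was at 48.0, 48.6, 106 and 100.1 CPM, Ms4a3 at 346, 469, 186 and 249.8 CPM and Ms4a6c at 293, 272, 204 and 127 CPM, each without overlap between genotypes. The differences were -1.09 (SE 0.13, edgeR adjusted p = 0.0751), 0.90 (SE 0.23, edgeR adjusted p = 0.172) and 0.77 (SE 0.25, edgeR adjusted p = 0.225). With the filter on low counts and no block, edgeR called 0 of the 9 members and 0.268% of 14194 genes. DESeq2 called these 3 members, and 6% of all genes. By edgeR 17.1% of all genes had an unadjusted p under 0.05. Ms4a6d, at 11.5, 9.76, 8.20 and 3.70 CPM, did not overlap either and differed by 0.84 (SE 0.38), and Ms4a4b, at 61.3, 32.6, 41.5 and 13.9 CPM, overlapped and differed by 0.76 (SE 0.56). The share of all genes without overlap over all cells was not computed. Random order of 2 libraries against 2 gives a share of 0.33, so the lack of overlap is not a result about these members.

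Several classes that carry these genes differed in size between genotypes. Immature B cells were 6.24%, 4.06%, 10.4% and 11.5% of cells, GMPs 7.08%, 7.23%, 2.18% and 2.84%, and classical monocytes 11.9%, 13.4%, 6.11% and 6.26%, each without overlap. Mature B cells, at 4.69%, 11.6%, 7.65% and 10.8%, and granulocyte precursors, at 1.79%, 2.92%, 0.927% and 2.73%, overlapped. With the UMI share of each class set to its mean over the 4 libraries, Ms4a1 was at 78.1, 80.0, 77.1 and 77.2 CPM, Ms4a3 at 306, 344, 306 and 307 CPM and Ms4a6c at 233, 232, 245 and 182 CPM. The log2 ratios of the mean CPM then were 0.04, 0.08 and 0.12, where they had been -1.09, 0.90 and 0.77. For all 9 members the ratio was nearer to 0 with the makeup held equal. Ms4a7, at 0.777, 1.25, 2.40 and 0.677 CPM over all cells, moved least, from -0.60 to -0.51.

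**Figure D5:**
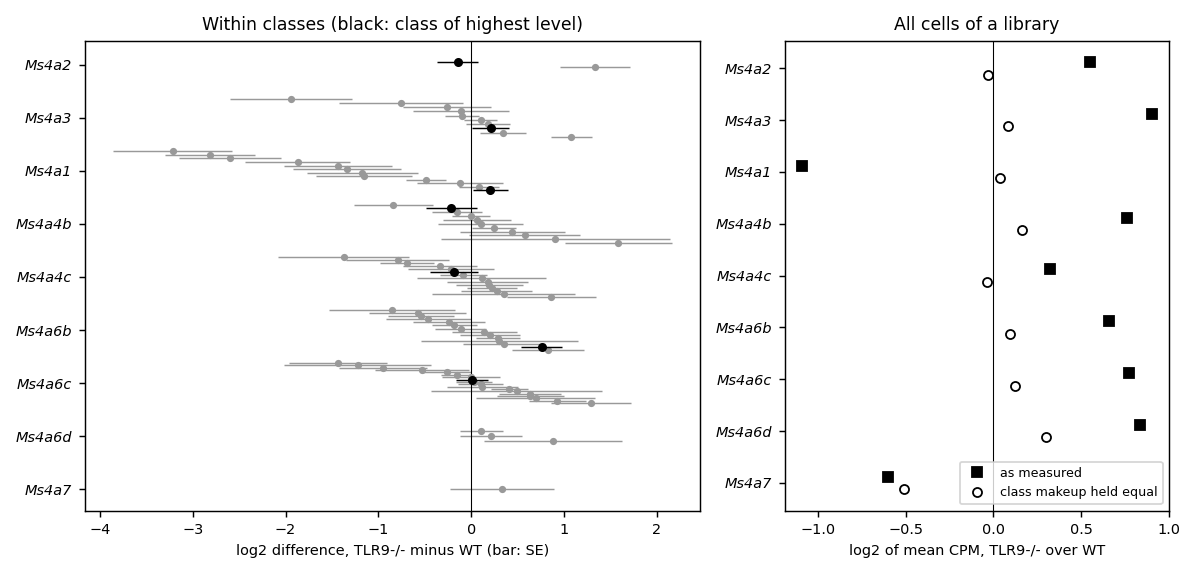
Left, log2 difference (TLR9-/- minus WT) of each member in every class where it was tested, with its SE, in black for the class of its highest level (not tested for Ms4a6d and Ms4a7). Right, log2 ratio of mean CPM over all cells, as measured (squares) and with the class makeup held equal (open circles); Ms4a1 moved from -1.09 to 0.04 and Ms4a3 from 0.90 to 0.08.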

How the data were processed

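Per the labels and the study's methods, bone marrow mononuclear cells were captured with a 10x 5′ kit, and the authors made the deposited UMI counts per gene and cell with Cell Ranger, which uses STAR, on mm10; Seurat 2.3.4 is named for later steps. Replicates were not pooled. The members and lists were chosen with earlier results of these data known. From the 40545 deposited barcodes, cells with 200 to 10000 genes and at most 10% mitochondrial UMIs were kept, the printed limit being read as a fraction. Scrublet marked 309, 420, 401 and 633 doublets, which were kept; its own threshold marked 1 cell of WT 2, where the expected rate of 0.8% per 1000 cells was used. Cells were clustered with scanpy 1.11.5 on 2000 variable genes without Ms4a rows (30 components, Leiden resolution 2). The naming rule was set after the clusters were seen and used no Ms4a row.

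UMIs were summed per library and class (at least 10 cells in each library) and tested with edgeR 4.0.16 (TMM, filterByExpr, quasi-likelihood test, two-sided, Benjamini-Hochberg over all genes of the class). DESeq2 1.42.0 was an alternative. Labels do not say which libraries share an experiment. Named were all 9 members, other Ms4a rows with at least 50 UMIs, the 3 most alike genes above 50 CPM (1 of them is not reported here), and listed genes past the test or, failing that, up to 3 of a list; Mpo, Ctsg and Oasl2 were named after their values were seen. The test was checked on simulated data. Transcripts were compared with blastn 2.17.0. The limit given for a count of 0 covers counting error only.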

Additional observations from a re-analysis of the deposited data

Results flagged for a closer look

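Some members lay without overlap above WT in one class and below WT in another, and the difference between the classes was not tested in any of these. Over all members and classes tested, groups without overlap were no more frequent than among all genes (29.4% of pairs against 36.3%). Each value is a log2 difference, TLR9-/- minus WT. Ms4a1 was higher in immature B cells (0.21) and lower in B-cell precursors (-0.49), basophils (-1.34), classical monocytes (-2.60), conventional dendritic cells (-1.15), erythroid cells (-2.81), granulocyte precursors (-1.43), plasmacytoid dendritic cells (-3.22) and T cells (-1.87). In some of these classes Ms4a1 passed the filter on low counts through the WT libraries alone, as given above. Pairs of the other members can also pass it through 1 genotype alone. Ms4a2 was higher in stem and multipotent progenitors (1.33) and lower in basophils (-0.14). Ms4a6b was higher in T cells (0.76), macrophages (0.35) and conventional dendritic cells (0.29), and lower in plasmacytoid dendritic cells (-0.54) and basophils (-0.18). Ms4a6c was higher in B-cell precursors (1.29), T cells (0.93), macrophages (0.64) and stem and multipotent progenitors (0.41), and lower in immature B cells (-1.43). None of these was called by edgeR in the fit with the filter on low counts and no block. With the library number as a block edgeR called Ms4a1 in classical monocytes, erythroid cells, plasmacytoid dendritic cells and T cells. It also called Ms4a2 in stem and multipotent progenitors and Ms4a6b in T cells, in classes where 1.08% to 2.51% of genes were called. Without the filter and block, the pairs of Ms4a1 called with the block were called as well, in classes where 0.503% to 1.28% of genes were.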

How the results depend on the processing

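Counts of calls between genotypes depended on the settings. Of the member and class pairs, 0 were called with RLE size factors, with doublets left out and at 5% mitochondrial UMIs. DESeq2 called 1 (Ms4a1 in erythroid cells, where it called 0.416% of genes). Without the filter on low counts 7 were called, in classes where 0.282% to 1.28% of genes were. At Leiden resolution 1 the count was 2, in immature neutrophils (0.709% of genes called) and stem and multipotent progenitors (0.254%). With clusters as units, chosen after seeing the data, 3 were called (given above). Fits without 1 library leave 1 library in a genotype, so their counts are not given. Over all cells 3 members were called by DESeq2 and 2 without the filter, with 6% and 2.98% of all genes. With the library number as a replicate block 8 pairs were called, in classes where 1.08% to 2.51% of genes were. Over all cells the block called 4 members and 8.21% of all genes. The labels do not say what the numbers mark. The deviations of same-numbered libraries correlated between -0.03 and 0.44 by class, below 0 only in megakaryocytes and plasma cells, and at 0.32 over all cells.

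Ms4a3 in stem and multipotent progenitors stayed between 0.81 and 1.78 over its alternatives. It passed without the filter (1.14), with the replicate block (1.09) and at resolution 1 (1.78). It did not pass with DESeq2 (1.08), with RLE size factors (1.09), with doublets left out (1.04) or at 5% mitochondrial UMIs (1.08). The difference was 1.14 without TLR9-/- 1, 1.03 without TLR9-/- 2, 1.39 without WT 1 and 0.81 without WT 2. Of 161 recomputed differences in 15 comparisons, 136 kept their direction and side of the threshold, 18 passed it with the same direction, and 7 changed sign, all with 1 library left out: Ms4a1 in mature B cells (range -0.062 without TLR9-/- 1 to 0.23), Ms4a3 in GMPs (-0.26 to 0.043 without TLR9-/- 1, and 0.038 without WT 2), Ms4a4b in T cells (-0.032 without WT 2 to 0.61) and in NK cells (-0.50 to 0.21 without WT 1), and Ms4a6c in classical monocytes (-0.097 without WT 2 and -0.016 without TLR9-/- 2, to 0.14). The causes were not tested. With the makeup held equal, chosen after seeing the data, Ms4a1 over all cells went from -1.09 to 0.036. At resolution 1, 6 of 9 members kept their class of highest level; no granulocyte precursor or macrophage class was named there, so Ms4a3, Ms4a6d and Ms4a7 could not keep theirs. Depth limits Ms4a6d and Ms4a7 most, with 1609 and 222 UMIs in all.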

Other observations

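Ms4a4a and Ms4a8a, rows of the family outside the 9 members, were read as well. Ms4a4a was at 750, 39.7, 511 and 74.0 CPM in nonclassical monocytes, from 62 UMIs, and at 92.4, 41.6, 120 and 27.4 CPM in classical monocytes, from 1384 UMIs, so both libraries numbered 1 lay above both numbered 2 in each class, whatever the genotype. Ms4a8a was at 51.2, 70.8, 64.5 and 124 CPM in classical monocytes, which held 89.8% of its UMIs among named classes, and was higher in the libraries numbered 2 within each genotype. Ms4a4d gave 21 UMIs in all.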
